A study of Medicago ruthenica with 9 samples.

Results

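Leaves of Medicago ruthenica, a drought-tolerant perennial forage legume, were compared 2 days after rewatering (RW) with leaves of watered control plants (CK), to see which microRNAs (miRNAs) had not returned to the control level. The comparison used 6 of the 9 small RNA libraries of the study, 3 RW and 3 CK, and every one of the 595 miRNA names in the deposited table, of which 591 were above 0 in at least 1 of these 6 libraries. All plants were seedlings 4 weeks old when the treatments began. CK plants were watered every 3 days and kept above 80% relative soil moisture, and RW plants received no water for 15 days, fell to 20% soil moisture and were then watered to saturation. The remaining 3 libraries came from drought-stressed leaves (DS) with the same 15 days without water and no rewatering. Their values are given beside the comparison only where they bear on it. The DS libraries also entered the choice of tested names and the estimate of the spread behind the limma p-values and intervals. CK and DS leaves were collected on day 15 and RW leaves 2 days later, so recovery from drought and the 2 further days of age cannot be told apart. The labels describe 3 biological replicates per group and do not say which plants or pots each library came from, so p-values measure the spread between these libraries as labelled.

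A plant miRNA is cut from a hairpin precursor by a Dicer-like enzyme, and the strand that is kept guides an Argonaute protein to mRNAs with a matching site, which are then cleaved or silenced. Many plant miRNA families follow the state of the leaf: the copper-responsive families miR397, miR398 and miR408 silence mRNAs of copper proteins such as superoxide dismutase, laccase and plantacyanin, miR399, miR827 and miR2111 follow phosphate status, and miR160, miR167, miR390 and miR393 act in auxin signalling. Other families hold transcription factors of leaf development in check, among them miR156, miR159, miR166, miR319 and miR396. Some names in miRNA tables belong to families, such as miR2916, miR5368 and miR6300, that are taken to resemble pieces of ribosomal or transfer RNA.

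Each deposited value is a read count scaled by the authors with a single factor for its library, and is called a normalized count here. The values summed to 1237467 to 1718279 per library in CK and RW, with the highest sum in RW replicate 2. The smallest value above 0 was 0.652 to 1.55 in the CK libraries and 2.30 to 3.09 in the RW libraries, and 423 to 489 names were above 0 in CK against 347 to 376 in RW. A name at 0 in RW may therefore be at a level that would have been listed in CK. Pearson correlations of log2(value + 1) were 0.935 to 0.949 between CK libraries and 0.895 to 0.912 between RW libraries, and RW replicate 2 was the least like the controls (0.845 to 0.860, against 0.875 to 0.913 for RW replicates 1 and 3). The authors removed reads matching ribosomal and transfer RNA before annotation, and the names resembling such fragments that were still listed took 0.497 to 0.659% of the listed values in CK and 1.93 to 2.42% in RW.

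The sequences that differed most clearly are shown first, as the deposited table gives them, with T for U. In a miRNA name, L and R followed by a sign and a number give bases added to or removed from the left or right end of the database sequence, ss gives a substituted position, MIR with -p3 or -p5 marks an arm predicted from a known precursor, and PC- marks a predicted miRNA without a database match. The 8 names that were lower in RW than in CK were 8 different sequences with 8 different seeds, and mtr-miR398b is added because it is the closest relative of the first. Capitals mark the seed, bases 2 to 8 from the 5′ end.
mtr-miR398a-3p_L+1R-1: tTGTGTTCtcaggtcacccct
mtr-miR398b: tGTGTTCTcaggtcgcccctg
mtr-miR398a-5p: gGAGTGACactgagaacacaag
mtr-miR408-3p: aTGCACTGcctcttccctggc
mtr-miR2119: tCAAAGGGaggtgtggagtag
mtr-miR5559-5p: tACTTGGTgaattgttggatc
PC-3p-54_81480: cGGGATCGgagattagagaat
PC-3p-78936_58: tTTCCCTAgataccattattg
PC-5p-21436_288: aTAGGGCCgacttgagaccacatg
The extra 5′ base of mtr-miR398a-3p_L+1R-1 shifts its seed by 1 position against that of mtr-miR398b, so the pair share the run TGTGTTC but not the seed. No other name in the table had the seed of any of these 9.

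The 10 names that were higher in RW were 9 different sequences, since vvi-miR3630-3p_L+3R-1_1ss5TG and han-miR3630-3p_L+3R-1_1ss24TA are 1 sequence under different names and are counted below as both. In the first 8 lines capitals again mark bases 2 to 8, and in the line of mtr-miR166a_R+4 they mark the 4 bases added at the 3′ end of mtr-miR166a, which is printed under it for comparison.
gma-miR6300_R+5: gTCGTTGTagtatagtggtaagt
gma-MIR5368-p3_2ss1AT18CA: tGAGATACcactctggaagagc
gma-MIR5368-p5_1ss1TC: cCCTGGGAttggctttgg
peu-MIR2916-p3_2ss5AG20TG: gGGGGCTCgaagacgatcagatacc
peu-MIR2916-p5_2ss4AG19TG: gGGGCTCGaagacgatcagatacc
vvi-miR3630-3p_L+3R-1_1ss5TG: gTCTGTGGgaatctctctgatgca
mtr-MIR2592bj-p3_2ss12TC19AT: aTTCCCACtgtccctgtct
csi-MIR156c-p5_2ss3TA18TG: cTAGAAGCgatgcgtgcg
mtr-miR166a_R+4: tcggaccaggcttcattccccTGGA
mtr-miR166a: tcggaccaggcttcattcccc
The shorter of the 2 miR2916 sequences lies inside the longer one, with 24 bases shared, so their values are not separate evidence. The 18 bases of csi-MIR156c-p5_2ss3TA18TG share a run of at most 5 bases with any of the 15 other miR156 names in the table, and mtr-MIR2592bj-p3_2ss12TC19AT shares at most 3 with the 2 other miR2592 names.

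Of the 339 names that reached a value of 5 in at least 3 of the 9 libraries and were tested, 10 rose (2.95%) and 8 fell (2.36%) in RW against CK, which is 5.31% in all. A name passed when its p-value from limma, adjusted by Benjamini-Hochberg over the 339 names, was below 0.05. The log2 differences below are RW minus CK on the log2(value + 1) scale, which understates changes between low values that are above 0. Where RW is listed at 0 the scale can overstate a fall, since RW libraries list only values from 2.30 to 3.09 upward. At an unadjusted p below 0.05 there were 53 names (15.6%). The RW and CK libraries did not overlap for 72 of the 339 names (21.2%), 35 of them with RW higher (10.3%) and 37 with RW lower (10.9%), and all 18 names that passed were among the 72. The median log2 difference over the tested names was -0.11. Of the tested names, 44 were higher in CK and reached the minimum only through the CK libraries, and 34 were higher in RW and reached it only through the RW libraries, so a difference was built into their choice. Of the 8 that fell, 3 were among the 44 (mtr-miR2119, mtr-miR398a-5p and PC-3p-78936_58), and none of the 10 that rose was among the 34. Over the other 261 names 10 rose (3.83%) and 5 fell (1.92%), a split added after seeing the data.

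**Figure D1:**
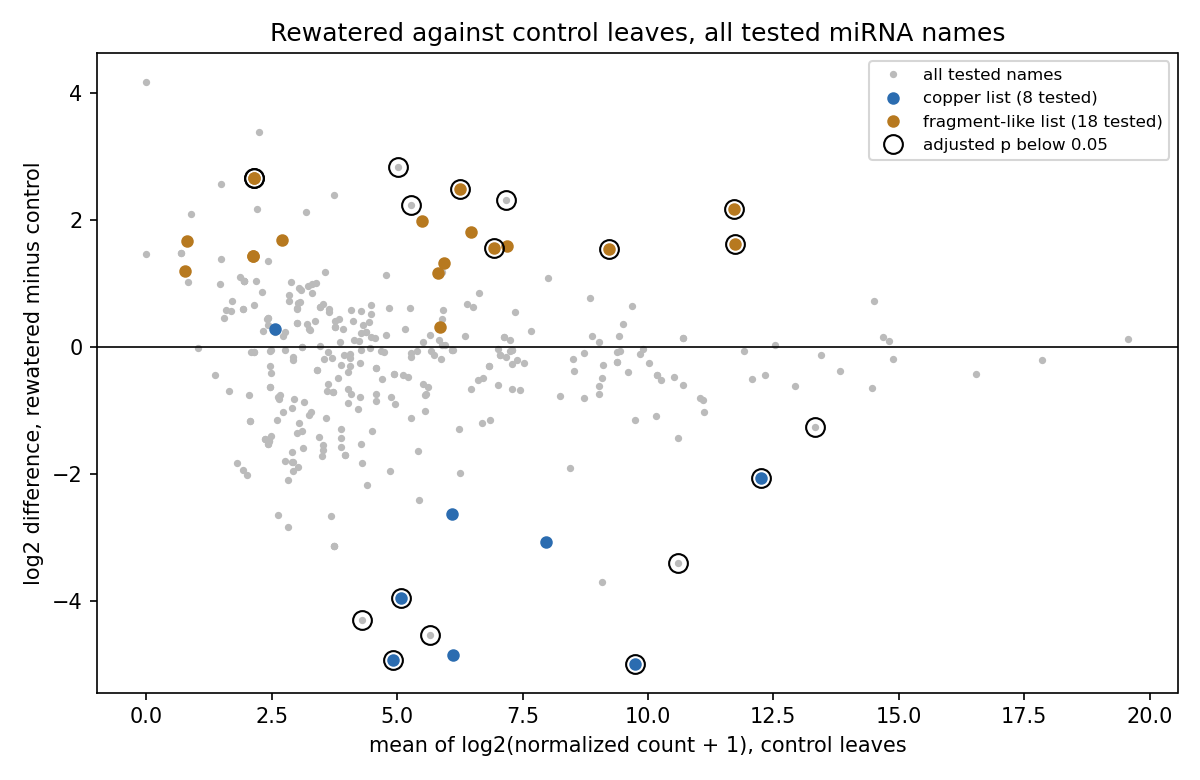
Each point is 1 of the 339 tested miRNA names, with the mean of log2(normalized count + 1) over the 3 control libraries on the x axis and the log2 difference of rewatered minus control leaves on the y axis. Copper-responsive names (blue, 8 tested) lie below 0 but for 1, fragment-like names (brown, 18 tested) all lie above 0, and black rings mark the 18 names with an adjusted p below 0.05.

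Several copper-responsive miRNAs were lower in RW than in CK, and the list had the lowest median of those examined. Of the 16 names of this list (miR397, miR398, miR408, miR857, miR1444 and miR2119), 8 were tested, 4 fell and none rose, against 2.36% of all tested names that fell. Without the 3 members that reached the minimum only through CK or only through RW, 2 of 5 fell, with a median of -3.06 beside -0.07 for the other 261 names. Over the 8 the median log2 difference was -3.50, or -2.58 after raising low values to a common level and -1.98 over all members with no filter, where the median of all tested names was -0.11. The list's share of the listed values was 0.342, 0.458 and 0.601% in CK replicates 1, 2 and 3 and 0.161, 0.0469 and 0.0975% in RW replicates 1, 2 and 3, while in DS it was 0.171, 0.265 and 0.358%, which overlapped CK and not RW. The RW libraries all lay below the CK libraries (2-sided exact permutation test, p = 0.1, the smallest that 3 against 3 allow). Most of the list's share was miR408 (mean 0.379% in CK), so its overlap of DS and CK mainly reflects that family. The share of miR398 and miR2119 was 0.0865, 0.0959 and 0.0791% in CK and 0.0154, 0.00622 and 0.0164% in DS, without overlap. Over the same 8 tested names the median log2 difference of DS against CK was -3.42. Whether fewer cells made these miRNAs or each cell held less of them cannot be told apart in whole leaves.

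mtr-miR398a-3p_L+1R-1, of the family that silences copper/zinc superoxide dismutases, showed the lowest log2 difference of all tested names. It was at 1071, 841 and 696 normalized counts in CK replicates 1, 2 and 3 and at 52.5, 43.7 and 7.40 in RW. The highest RW library was far below the lowest CK library, and RW replicate 3 was the lowest of all. The means were 869 ± 189 and 34.5 ± 23.9 (SD, n = 3), 25.2-fold lower in RW, with a log2 difference of -4.98 (standard error 0.61, limma adjusted p = 0.00199). This call held without any single library, with adjusted p-values of at most 0.0101.

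The opposite arm of the same precursor, mtr-miR398a-5p, was at 23.0, 33.5 and 45.8 in CK and at 0, 9.59 and 0 in RW. Both arms were thus low in RW, with the 5p arm listed in RW replicate 2 alone. It reached the minimum only through CK, so no p-value is given for it. mtr-miR398b was at 152, 287 and 357 in CK and 89.3, 7.46 and 34.6 in RW, without overlap, and its log2 difference of -3.06 (standard error 0.80) missed the threshold (limma adjusted p = 0.0523).

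mtr-miR2119, a legume miRNA that silences alcohol dehydrogenase mRNA and is placed in the copper list because it shares its precursor transcript with miR398 in legumes, was at 42.8, 26.03 and 22.6 in CK and listed at 0 in all 3 RW libraries. It reached the minimum for testing only through CK, so no p-value is given for it. Its CK values were above the smallest values listed in RW (2.30 to 3.09), and no fold is given against libraries listed at 0.

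mtr-miR408-3p, which silences plantacyanin and laccase mRNAs, was the most abundant member of the list, at 3745, 4392 and 7109 in CK and 1908, 715 and 1167 in RW. All RW libraries were below all CK libraries, and the means of 5082 ± 1785 and 1264 ± 602 (SD, n = 3) differed 4.02-fold. The log2 difference was -2.06 (standard error 0.43, limma adjusted p = 0.0177), and the call was lost under the test of the study's methods, which uses unlogged values and an unadjusted p, without any single CK library or without RW replicates 2 or 3 (adjusted p = 0.0507 to 0.0749).

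gma-miR408a-3p_L-1R+2, a 22-base form of the same arm, was at 42.3, 37.8 and 187 in CK and 21.2, 7.46 and 6.17 in RW. All RW values lay below all CK values, and it did not pass (limma adjusted p = 0.203). bra-MIR408-p5 was the 1 tested member with a log2 difference above 0 (0.29), with values of 3.65, 3.72 and 8.55 in CK and 7.36, 5.33 and 6.17 in RW that overlapped. Of the 8 members that were not tested, mtr-miR397-5p_L-2R+2, of the laccase-silencing family, was at 3.39, 2.48 and 3.02 in CK and listed at 0 in all RW libraries, where such levels are near the smallest values listed. It is named here after its values had been seen.

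**Figure D2:**
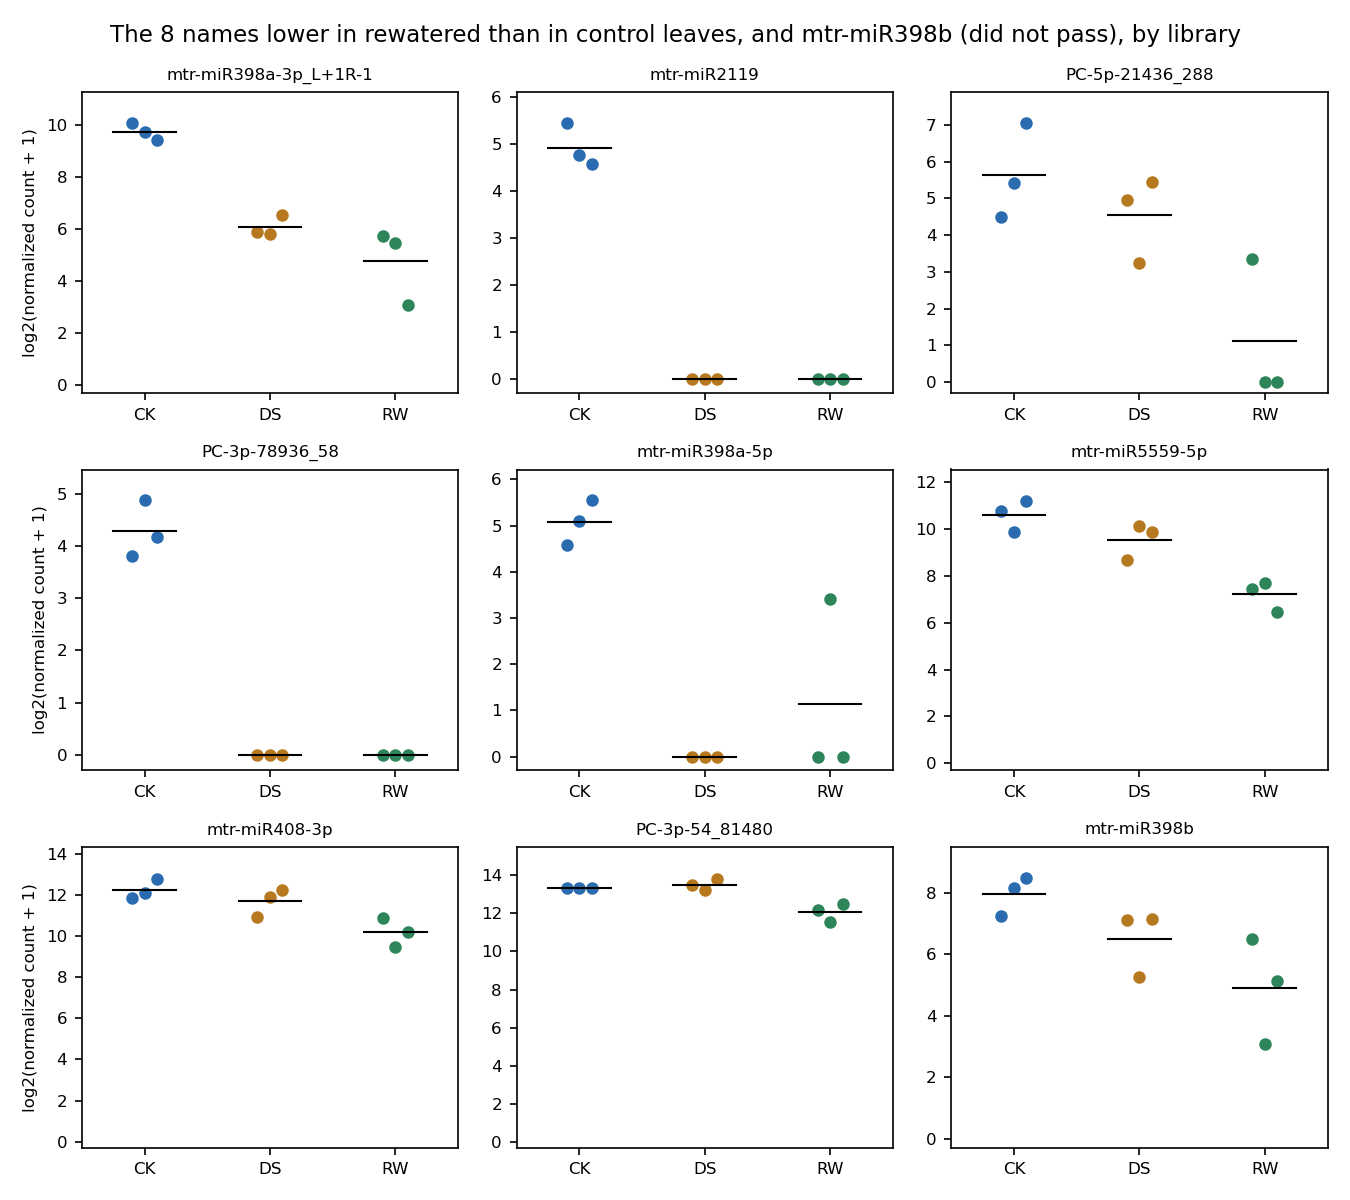
Values of the 8 names that fell, and of mtr-miR398b, which did not pass, in each of the 9 libraries, as log2(normalized count + 1) on the y axis, for the CK, DS and RW leaves. Points are libraries and bars are group means of 3, and in every panel all RW points lie below all CK points.

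Outside the copper list, 4 names fell. mtr-miR5559-5p, a miRNA described in Medicago truncatula, was at 1716, 925 and 2324 in CK and 173, 208 and 87.6 in RW. All RW libraries lay far below all CK libraries, a difference of the means of 10.6-fold (1655 ± 701 against 156 ± 61.9, SD, n = 3). The log2 difference was -3.39 (standard error 0.48, limma adjusted p = 0.00250), and it passed without each of the 9 libraries in turn (adjusted p of at most 0.0186) but not under the test of the study's methods.

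The other 3 were predicted miRNAs without a database match, for which no role is known. PC-3p-54_81480 was the most abundant of them, at 10419.9, 10344 and 10234 in CK, where the libraries were nearly equal, and 4649, 2991 and 5852 in RW. It was 2.30-fold lower in RW with no overlap, a log2 difference of -1.25 (standard error 0.27, limma adjusted p = 0.0230). The call was lost without any single CK library or without RW replicate 2 (adjusted p = 0.0679 to 0.0868), and also with equal totals or once the fragment-like names were dropped (adjusted p = 0.0641 to 0.104).

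PC-3p-78936_58 was at 13.0, 28.5 and 17.1 in CK and listed at 0 in all RW libraries, and like mtr-miR2119 it reached the minimum only through CK and is given no p-value. PC-5p-21436_288 was at 21.4, 41.5 and 132 in CK and 9.20, 0 and 0 in RW. CK replicate 3 was several times the other CK libraries, yet every CK value was above every RW value. Its log2 difference was -4.53 (standard error 1.03, limma adjusted p = 0.0274), and it did not pass without any single CK library, without RW replicates 2 or 3 (adjusted p = 0.0540 to 0.124) or with the fragment-like list left out (adjusted p = 0.0520), nor under the test of the study's methods. Of the 34 tested PC- names, 3 fell (2.36% of all tested names did) and none rose (2.95% of all), with a median of -0.06, and 2 of the 26 that did not reach the minimum through CK or RW alone fell (1.92% of all such names).

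Most of the names that rose belonged to families taken to resemble fragments of ribosomal or transfer RNA, chosen from general knowledge and not from a comparison of these sequences with such RNAs. Of the 18 names of this list, all were tested, 7 rose and none fell, against 2.95% of all tested names that rose. All 18 had a log2 difference above 0 (0.32 to 2.66, median 1.60), as did 140 of all 339 tested names. For the 4 that reached the minimum only through RW, a difference above 0 was built into their choice. These 4 did not pass, and 7 of the other 14 did, with a median of 1.65. The RW and CK libraries did not overlap for 14 of the 18, each with RW higher, against 10.3% of all tested names. The non-overlapping names include a pair of miR2916 names that reached the minimum only through RW and carry the same values in every library. The list took 0.497, 0.612 and 0.659% of the listed values in CK replicates 1, 2 and 3 and 1.93, 2.42 and 2.06% in RW replicates 1, 2 and 3, a mean 3.62 times as high (2-sided exact permutation test, p = 0.1, the smallest possible). In DS replicates 1, 2 and 3 the share was 1.31, 1.14 and 2.43%. The part of RNA quality in this share and in the other differences was not tested. With the list left out and the libraries rescaled, 2 of the other names rose and 5 fell.

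gma-miR6300_R+5 was the clearest of the rises. It was at 96.5, 84.3 and 52.8 in CK and 382, 489 and 428 in RW, where the lowest RW library was above 3 times the highest CK library. The means were 77.9 ± 22.5 and 433 ± 53.8 (SD, n = 3), 5.56-fold higher in RW, with a log2 difference of 2.50 (standard error 0.35, limma adjusted p = 0.00250, at most 0.0170 without any single library).

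The miR5368 names carried most of the share. gma-MIR5368-p3_2ss1AT18CA was at 3429, 3081 and 3669 in CK and 10753, 25276 and 12998 in RW, with RW replicate 2 the highest, and rose by a log2 difference of 2.17 (standard error 0.35, limma adjusted p = 0.00520, at most 0.0390 without any single library), but it did not pass the test of the study's methods. gma-MIR5368-p5_1ss1TC was at 3122, 3129 and 4011 in CK and 9876, 11859 and 9693 in RW, a closer set of RW values. Its log2 difference was 1.62 (standard error 0.30, limma adjusted p = 0.0110), and it missed the threshold without CK replicates 1 or 2 (adjusted p = 0.0540 to 0.0597).

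Both nested miR2916 sequences rose. peu-MIR2916-p3_2ss5AG20TG was at 467, 639 and 714 in CK and 1889, 2074 and 1338 in RW, a log2 difference of 1.54 (standard error 0.33, limma adjusted p = 0.0210). peu-MIR2916-p5_2ss4AG19TG was at 83.2, 131 and 159 and 386, 432 and 275, a log2 difference of 1.57 (standard error 0.39, limma adjusted p = 0.0426). Neither passed without any single CK library or without RW replicates 1 or 2, nor the second without RW replicate 3 (adjusted p = 0.0562 to 0.143), and the second was also lost with equal totals or a pseudocount of 0.5 (adjusted p = 0.0515 to 0.0629 over these and the replicate block).

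The single sequence listed as vvi-miR3630-3p_L+3R-1_1ss5TG and han-miR3630-3p_L+3R-1_1ss24TA was near the smallest listed values in CK, at 2.09, 7.13 and 2.52, and at 20.3, 44.2 and 22.2 in RW. Its log2 difference was 2.66 (standard error 0.61, limma adjusted p = 0.0274), and it did not pass under the test of the study's methods or once CK replicate 1 or 3 or RW replicate 2 or 3 was left out (adjusted p = 0.0749 to 0.118). Of the members that did not pass, ath-miR8175_L+4 was nearest, at 55.3, 90.5 and 135 in CK and 402, 284 and 265 in RW (log2 difference 1.81, limma adjusted p = 0.0558), and ptc-miR6478_R+2_1ss21GA was at 58.4, 195 and 268 and 748, 410.4 and 275 (limma adjusted p = 0.191).

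**Figure D3:**
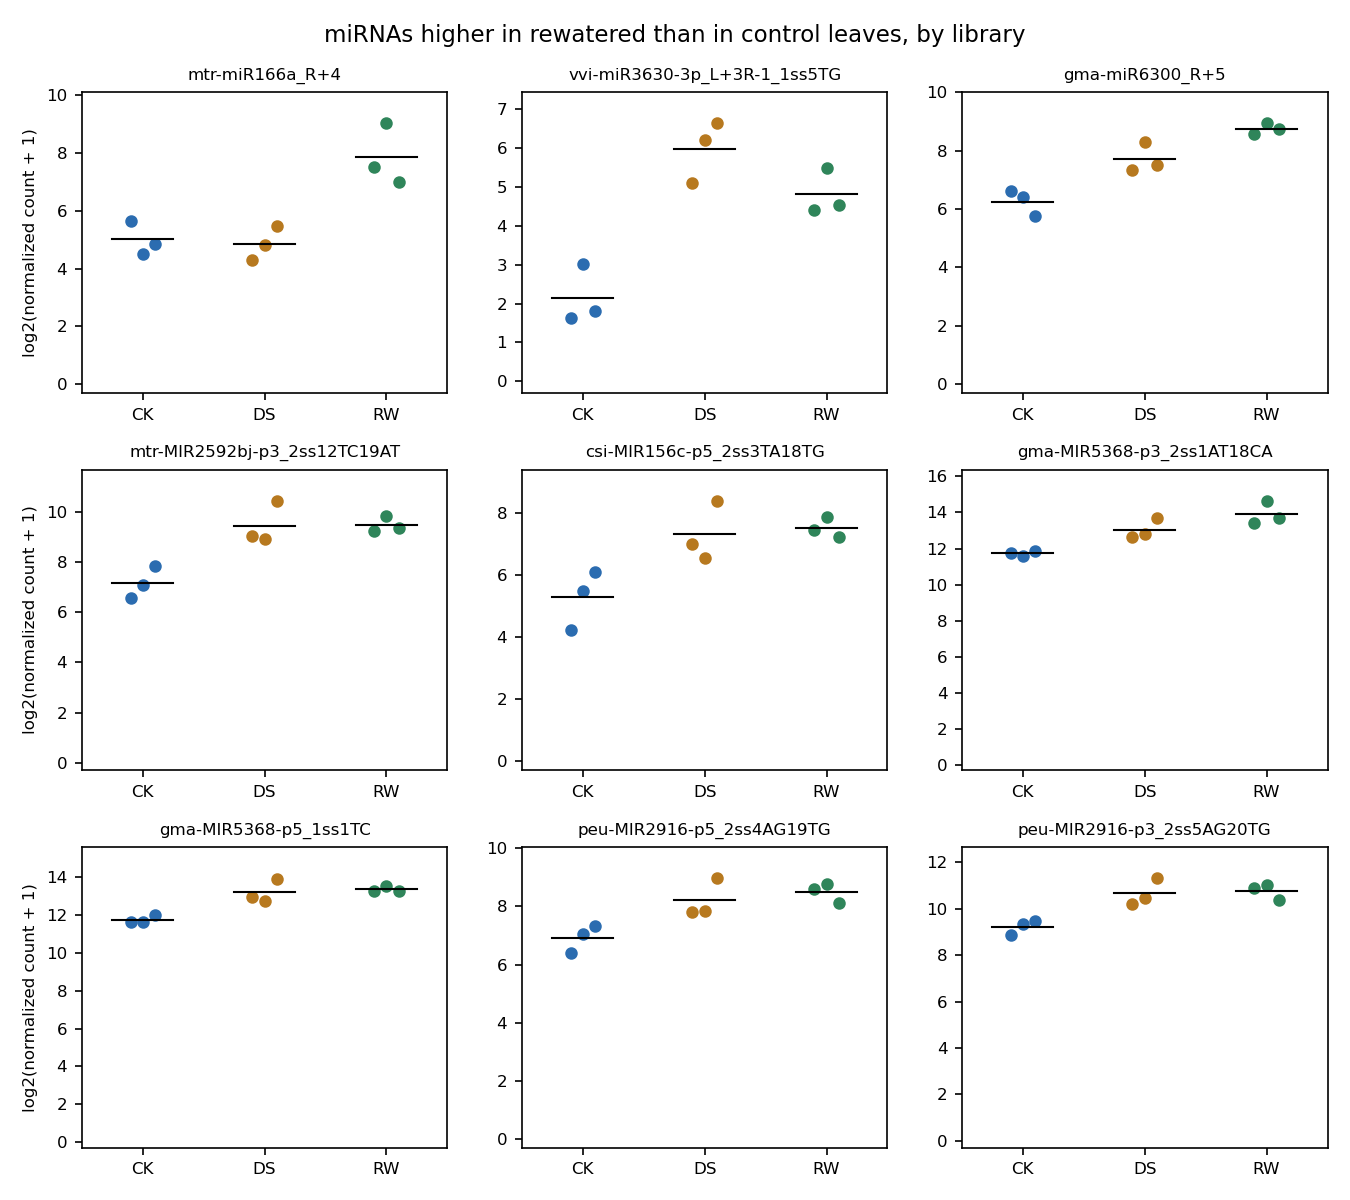
Values of the 9 sequences that rose, in each of the 9 libraries, as log2(normalized count + 1) on the y axis, for the CK, DS and RW leaves, with points for libraries and bars for group means of 3. All RW points lie above all CK points in every panel, and mtr-miR166a_R+4 is the only panel where the DS and CK points overlap.

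**Figure D4:**
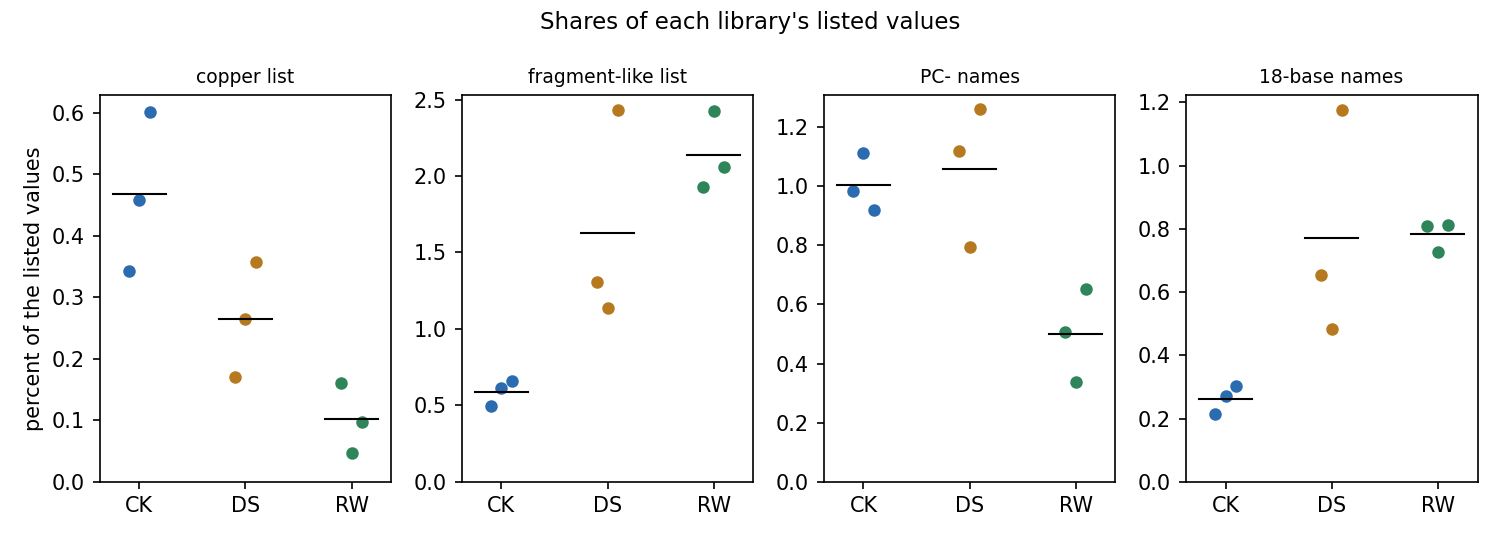
Share of each library's listed values, in percent, held by the copper-responsive list, the fragment-like list, the PC- names and the names of 18 bases, with 1 point per library and a bar for the mean of 3. RW lies below CK without overlap for the copper list (0.047 to 0.161% against 0.342 to 0.601%) and the PC- names, and above it for the fragment-like list and the 18-base names. Most of the 18-base share is the fragment-like name gma-MIR5368-p5_1ss1TC.

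Among the rises outside the fragment-like list, mtr-miR166a_R+4 stood out from its own family. miR166 silences HD-ZIP III transcription factors, which set the upper side of the leaf, and the listed form is mtr-miR166a with 4 more bases at its 3′ end. It was at 49.8, 22.01 and 27.9 in CK and 182, 523 and 128 in RW, with every RW library above every CK library and RW replicate 2 the highest. The means were 33.3 ± 14.7 and 278 ± 214 (SD, n = 3), 8.35-fold apart, or 4.66-fold without RW replicate 2 (RW mean 155), and the log2 difference was 2.84 (standard error 0.57, limma adjusted p = 0.0159). It did not pass under the test of the study's methods, nor without CK replicates 2 or 3 or RW replicate 2 (adjusted p = 0.0639 to 0.0747). mtr-miR166a itself, the most abundant name of the table, was at 930916, 626671 and 820698 in CK and 744954, 1164299 and 727018 in RW, with overlapping groups and a log2 difference of 0.13 (95% interval -0.48 to 0.75).

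The 25-base form was a minute fraction of the 21-base form, 0.00535, 0.00351 and 0.00340% of it in CK and 0.0244, 0.0449 and 0.0177% in RW. The ratio was thus higher in every RW library, by a mean of 7.09-fold (2-sided exact permutation test, p = 0.1, the smallest possible). Ratios of a longer to a shorter sequence with the same 5′ end could be formed for 18 pairs above 0 in all 6 libraries, and the RW and CK ratios overlapped for the other 17. Several of the 17 share a member, and a miR2916 pair was at 100% in all 6 libraries, so they are not separate comparisons. The longer miR166a form had already passed while the shorter overlapped between groups, so their ratio is not separate evidence. In this family the 1-base and 2-base changes at the 3′ end, mtr-miR166a_1ss21CA and mtr-miR166a_2ss20CT21CA, had log2 differences of 0.18 and -0.06 with 95% intervals inside 2-fold. These names were added to the text after their values had been seen.

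mtr-MIR2592bj-p3_2ss12TC19AT, named for a precursor family of Medicago, was at 93.4, 135 and 229 in CK and 601, 921 and 648 in RW. It was 4.74-fold higher in RW by its means, with no overlap and a log2 difference of 2.31 (standard error 0.45, limma adjusted p = 0.0151) and adjusted p-values of 0.0519 to 0.0674 once CK replicate 1 or 2 or RW replicate 2 or 3 was left out. csi-MIR156c-p5_2ss3TA18TG was at 17.7, 44.0 and 67.4 and 174, 231 and 148, a log2 difference of 2.24 (standard error 0.56, limma adjusted p = 0.0426). This last call was among the least stable, lost without any of the CK or RW libraries or DS replicate 1 (adjusted p = 0.0562 to 0.143), with equal totals, a pseudocount of 0.5 or the fragment-like list left out (adjusted p = 0.0550 to 0.0886). Both sequences are short and rose beside the fragment-like list, and whether they are fragments of other RNAs was not tested.

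Of the 6 names closest to passing, 3 had higher values in RW and were neither on the fragment-like nor on the copper list. gma-MIR5038a-p3_2ss3AG18TG was listed at 0 in all CK libraries and at 5.52, 60.8 and 13.6 in RW. It reached the minimum only through RW, so no p-value is given for it. No other name was at 0 in all CK libraries and above 0 in all RW libraries. bol-MIR9410-p5_2ss5TG18TA was at 5.74, 13.0 and 24.7 in CK and 44.2, 87.4 and 87.6 in RW, and mtr-MIR2603-p3_2ss9AC17AC at 4.44, 6.51 and 17.4 and 36.4, 48.5 and 33.3 (limma adjusted p = 0.0702 for both). All 3 are predicted arms of 18 to 20 bases.

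The names that rose and those that fell differed in length. Of the 8 that fell, 6 (75%) had 21 bases, the length that Dicer-like 1 mostly makes, and of the 10 that rose none did. Of the 339 tested names 121 had 21 bases (35.7%). Among these 8, mtr-miR2119, PC-3p-78936_58 and mtr-miR398a-5p reached the minimum only through CK, so their fall was built into their choice. Over the 261 names that did not reach it through CK or RW alone, 98 had 21 bases, as did 4 of the 5 that fell. Among the rises 3 had 18 or 19 bases (30%), against 23 of all tested names (6.78%), and 2 had 25 bases, against 4 of all tested names. A 5′ U, which is typical of miRNAs loaded into Argonaute 1, was the first base of 4 of the 8 that fell, 2 of the 10 that rose and 162 of the 339 tested (47.8%). Those 4 include mtr-miR2119 and PC-3p-78936_58. A 5′ G opened 5 of the 10 that rose and 34 of the tested names (10.0%). The 5 are gma-miR6300_R+5, both nested miR2916 sequences and the single miR3630 sequence under its different names. All are on the fragment-like list, and they are not 5 separate cases. These counts describe the names and were not tested.

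In the libraries as a whole, names of 18 bases held 0.216, 0.272 and 0.304% of the listed values in CK and 0.810, 0.727 and 0.811% in RW, and names of 25 bases 0.0526, 0.0735 and 0.0699% and 0.213, 0.183 and 0.153%. Both shares were higher in every RW library than in every CK library. Most of the 18-base share was gma-MIR5368-p5_1ss1TC and most of the 25-base share peu-MIR2916-p3_2ss5AG20TG, in each of these libraries. The 2 shares thus largely repeat the rises of these fragment-like names and do not show a change of length across the libraries. Names of 21 bases held 89.2, 90.6 and 92.4% in CK and 89.5, 87.9 and 88.5% in RW, which overlapped (2-sided exact permutation test, p = 0.2). By name, the 121 tested miRNAs of 21 bases had a median log2 difference of -0.39, the 38 of 22 bases -0.56 and the 134 of 24 bases 0.04. Without names that reached the minimum only through CK or only through RW, these medians were -0.26, -0.37 and 0.09. After raising low values to a common level, they were -0.19, -0.28 and 0.11.

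A difference of less than 2-fold could be shown for 34 of the 339 tested names (10.0%), those whose 95% interval of the log2 difference lay between -1 and 1. They included 7 of the 10 most abundant tested names, mtr-miR166a, mtr-miR159a, mtr-miR396a-5p, mtr-miR396b-5p, nta-miR482a, gma-miR167c_R+1 and mtr-MIR1510a-p5_1ss21AT. mtr-miR159a, which acts on mRNAs of MYB transcription factors, was at 196058, 257206 and 267912 in CK and 240848, 173608 and 211351 in RW, a log2 difference of -0.20 (95% interval -0.79 to 0.38). mtr-miR396a-5p, which acts on mRNAs of growth-regulating factors, was at 89889, 97046 and 99349 in CK and 82194, 62318 and 69501 in RW. Its RW libraries all lay below its CK libraries, yet the interval of the difference was -0.89 to 0.03, so a 2-fold change lay outside it.

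For the other 3 of the 10 a 2-fold difference was within the interval. mtr-miR482-3p_L-1R+2, whose family acts on NBS-LRR resistance gene mRNAs, was at 31325, 19491 and 20661 in CK and 28099.9, 53744 and 38527 in RW (interval 0.08 to 1.39, limma adjusted p = 0.256). mtr-miR164a, which silences NAC transcription factors, had an interval of -1.27 to -0.02 (limma adjusted p = 0.298), and mtr-miR2118, another NBS-LRR family, -0.92 to 1.13 (limma adjusted p = 0.946). These names did not pass, and their values do not show that they were at the control level.

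Of the 62 tested names of families that act on transcription factors of leaf development, 2 rose (2.95% of all tested names did), none fell (2.36% of all) and 19 lay within 2-fold (10.0% of all), with a median of -0.10 beside -0.11 for all tested names. The 2 that rose were mtr-miR166a_R+4 and csi-MIR156c-p5_2ss3TA18TG, described above, and neither is the main form of its family. None of the 21 tested auxin names passed, none at an unadjusted p from limma below 0.05 (15.6% of all tested names were). Of the 21, 19 had a log2 difference below 0 (199 of all 339 tested names did), with a median of -0.43. Of these auxin names, 3 reached the minimum only through CK, so a difference below 0 was built into their choice. The other 18 had a median of -0.40, beside -0.07 for the 261 names that did not reach it through CK or RW alone. gma-miR167c_R+1, whose family silences auxin response factors, was at 17859, 11845 and 14376 in CK and 11655, 9926 and 12236 in RW, and mtr-miR160a, which silences other auxin response factors, at 1247, 1333 and 934 and 939, 593 and 1139.6, overlapping in both cases.

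None of the 14 tested names of the NBS-LRR list passed (5 at an unadjusted p below 0.05, where 15.6% of all tested names were, median -0.35), and their share of the listed values was 8.98, 7.31 and 5.69% in CK and 7.05, 8.87 and 8.11% in RW. None of the 9 tested phosphate names passed (1 at an unadjusted p below 0.05, against the same 15.6%, median -0.11). mtr-miR2111l was highest of these by its log2 difference, at 399, 577 and 419.6 in CK and 673, 1041 and 684 in RW (0.77, limma adjusted p = 0.253), and mtr-miR2111a-5p was at 730.2, 919 and 579 and 762, 1085 and 996. The single sulfate name, mdm-MIR395k-p5_2ss12TC20TC, was listed in 1 CK and 2 RW libraries.

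The families that silence parts of the miRNA machinery, miR162 (Dicer-like 1), miR168 (Argonaute 1) and miR403 (Argonaute 2), had 5 tested names. All 5 had log2 differences below 0, as did 199 of all 339 tested names. Their median was -1.02, or -0.76 without the 1 member that reached the minimum only through CK. None passed (1 at an unadjusted p below 0.05, against 15.6% of all). mtr-miR162 was at 2879.7, 1565 and 2431 in CK and 1531, 935 and 918 in RW, without overlap (-1.02, limma adjusted p = 0.280). mtr-miR168b was at 2972, 6309.7 and 4289 and 3234, 2803 and 3142, where 1 CK library lay inside the range of RW. The list's share of the listed values was 0.412, 0.699 and 0.527% in CK and 0.399, 0.244 and 0.351% in RW, lower in every RW library (2-sided exact permutation test, p = 0.1). Of the 75 tested names of large Medicago precursor families, 1 rose and none fell, with a median of -0.05, and of the 159 tested predicted arms 6 rose and none fell, with a median of -0.04, where 2.95% of all tested names rose and 2.36% fell.

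Of the 18 names that passed in RW against CK, 10 also passed in DS against CK and 8 did not. Among these 10, mtr-miR2119, mtr-miR398a-5p and PC-3p-78936_58 reached the minimum only through CK, so a difference from CK was built into their choice. DS and RW were both compared with the same CK libraries, and 18 names passed in each comparison (5.31% of the tested names each), so the values are given side by side only. Among the names that fell in RW, mtr-miR398a-3p_L+1R-1 was at 58.3, 55.6 and 91.0 in DS, mtr-miR2119 and PC-3p-78936_58 were listed at 0 in all DS libraries, and so was mtr-miR398a-5p. mtr-miR398a-3p_L+1R-1 had a limma adjusted p of 0.00798 for DS against CK. All 4 were thus low in both DS and RW. Among the rises, gma-miR6300_R+5, gma-MIR5368-p5_1ss1TC, peu-MIR2916-p3_2ss5AG20TG, mtr-MIR2592bj-p3_2ss12TC19AT and both miR3630 names also passed in DS, with log2 differences of 1.43 to 3.82 against CK.

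Of the 8 names that passed after rewatering and not in drought, 3 also differed between DS and RW. mtr-miR5559-5p was at 405, 1110.4 and 916 in DS, PC-3p-54_81480 at 11410.3, 9458 and 14473 and mtr-miR166a_R+4 at 18.9, 27.0 and 43.7. None of them passed in DS against CK (limma adjusted p = 0.255, 0.742 and 0.924), and all 3 differed between DS and RW when that difference was tested (limma adjusted p = 0.0213, 0.0175 and 0.0175). mtr-miR408-3p, at 1968, 3860.4 and 4784 in DS, passed in neither DS against CK nor DS against RW (limma adjusted p = 0.482 and 0.122). The same held for PC-5p-21436_288, at 29.96, 8.43 and 42.8 in DS (limma adjusted p = 0.557 and 0.143). gma-MIR5368-p3_2ss1AT18CA, csi-MIR156c-p5_2ss3TA18TG and peu-MIR2916-p5_2ss4AG19TG, at 6354, 7059 and 12992, at 128, 92.7 and 334 and at 224, 229 and 498 in DS, missed the threshold in DS against CK (limma adjusted p = 0.0578, 0.0578 and 0.0911) and did not pass in DS against RW.

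**Figure D5:**
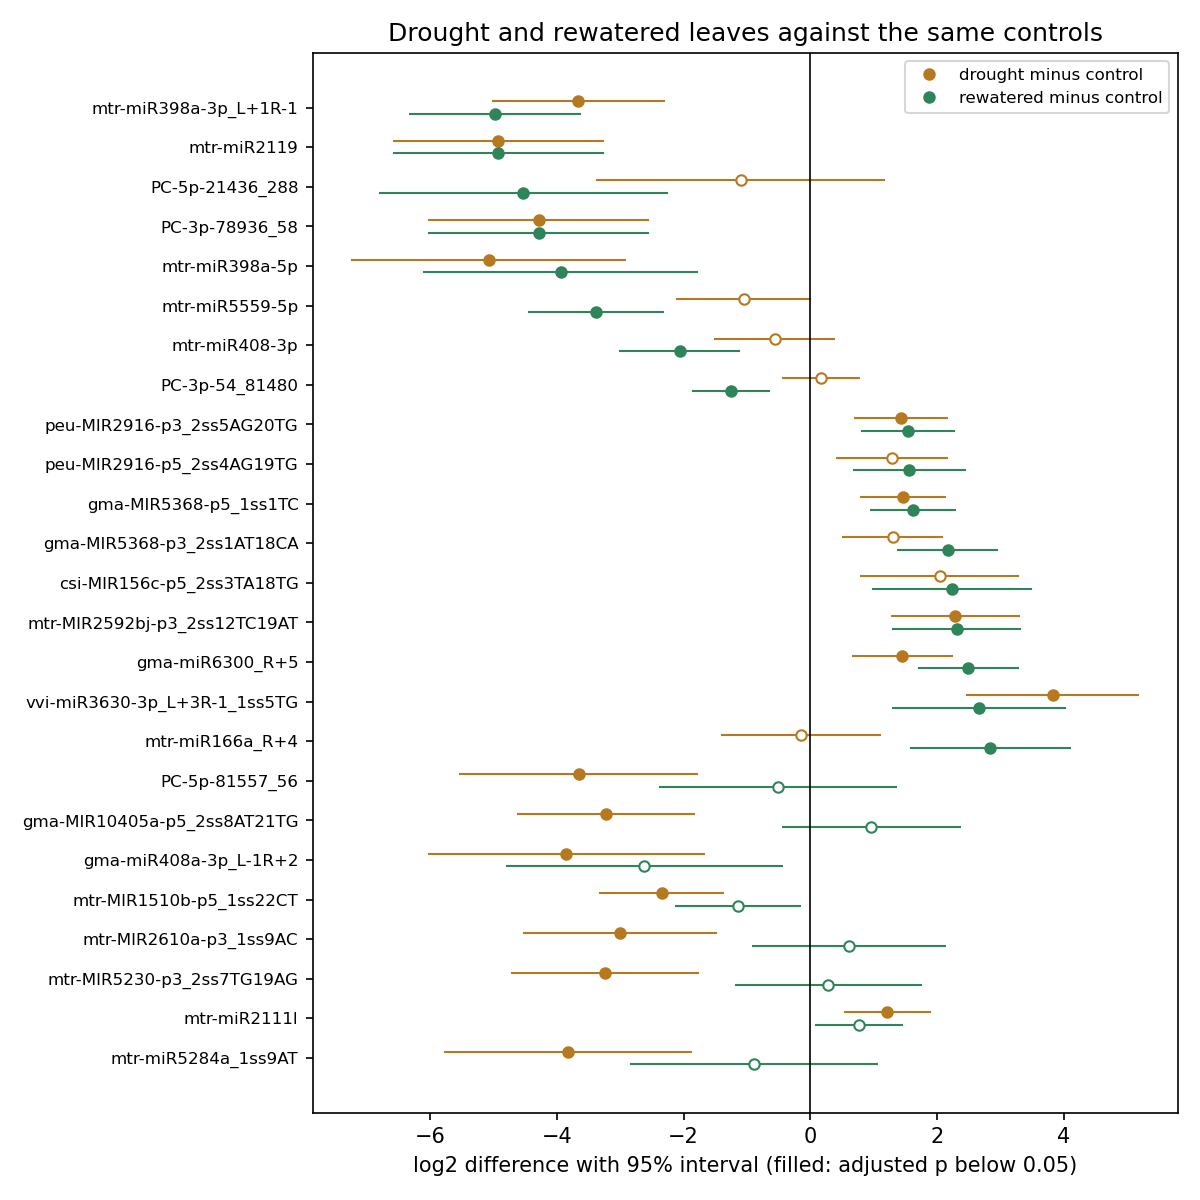
Log2 differences with their 95% intervals from limma on the x axis, for drought minus control (brown) and rewatered minus control (green), for each name that passed either comparison, the miR3630 sequence once. Filled points have an adjusted p below 0.05, and the last 8 names passed in drought and not after rewatering.

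The other 8 names that passed in DS against CK did not pass in RW against CK. Of these 8, gma-MIR10405a-p5_2ss8AT21TG, mtr-MIR2610a-p3_1ss9AC and mtr-MIR5230-p3_2ss7TG19AG were listed at 0 in all DS libraries. In RW these 3 names were at 20.3, 17.1 and 14.8, at 9.20, 12.8 and 12.3 and at 9.20, 12.8 and 9.87. For DS against RW, the limma adjusted p was 0.0133 for gma-MIR10405a-p5_2ss8AT21TG and 0.0175 for mtr-MIR5230-p3_2ss7TG19AG. mtr-MIR2610a-p3_1ss9AC reached the minimum only through RW. A difference between DS and RW was thus built into its choice, and no p-value is given for it. In CK the 3 names were at 7.83, 10.5 and 7.04, at 6.78, 11.2 and 4.53 and at 6.26, 11.2 and 8.55. RW and CK thus overlapped for all but gma-MIR10405a-p5_2ss8AT21TG, which was higher in every RW library. These are low values, in DS libraries whose smallest listed values were 3.94 to 4.21, and their intervals for RW against CK (-0.43 to 2.36, -0.90 to 2.13 and -1.18 to 1.75) still held 2-fold differences.

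Of the remaining 5, mtr-miR5284a_1ss9AT was at 41.7, 25.4 and 25.7 in CK, 9.46, 0 and 0 in DS and 23.0, 13.9 and 12.3 in RW, and PC-5p-81557_56 at 31.8, 17.98 and 27.7, 7.88, 0 and 0 and 18.4, 12.8 and 22.2. Both lay between DS and CK in RW by their means. mtr-MIR1510b-p5_1ss22CT, from the precursor of an NBS-LRR-targeting miRNA, was at 684, 1434 and 645 in CK, 249, 103 and 184 in DS and 265, 374 and 595 in RW, where every RW library was above every DS library and below every CK library (RW against CK -1.14, limma adjusted p = 0.235; DS against RW adjusted p = 0.234). mtr-miR2111l was at 1126, 1392 and 776 in DS, and its RW values overlapped these. gma-miR408a-3p_L-1R+2 was at 7.88, 0 and 10.7 in DS and was low in RW as described above.

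The table listed 115 names at 0 in all RW libraries that were above 0 in at least 1 CK library, against 34 names the other way round. Since the RW libraries list only values from 2.30 to 3.09 upward and the CK libraries values from 0.652 to 1.55, these counts were not read as losses. Of the names above 0 in all CK libraries and at 0 in all RW libraries, mtr-miR2119 and PC-3p-78936_58 had the highest CK means, 30.5 and 19.6, and every other one had a CK mean of at most 6.40.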

How the data were processed

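Small RNA libraries (TruSeq Small RNA kit, Illumina HiSeq) from 3 CK, 3 DS and 3 RW leaf samples were processed by the authors with ACGT101-miR (version not stated). Adapter, low-complexity, Rfam and repeat reads were removed, and sequences of 18 to 25 bases were matched to miRBase 22.0 precursors and to assembled transcripts. The deposited values are a signal, read counts multiplied by the authors with 1 factor per library, with the choice of factor not stated. Low values of each library lay on steps of 1 read (98.6 to 100% within 0.1 of a step), with smallest values near 5 steps in most libraries, so counting limits for values of 0 were not computed. Count models were not used.

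The table had 667 lines for 595 names and 543 sequences, and repeated names entered 1 time. limma 3.58.1 (R 4.3.3) was fitted to log2(value + 1) of 339 names over all 9 libraries together, letting the variance follow the mean, with Benjamini-Hochberg adjustment. Exact permutation tests used scipy 1.17.1. The fit was tested on simulated data. Named miRNAs were all that passed RW or DS against CK, up to 4 per list with the highest mean, the 10 most abundant, the 6 nearest to passing, and names with the same sequence, and exceptions are marked. A result that this rule names is not reported here. Lists were set by the family number in the name. Members, lists and tests were chosen with earlier results of these data known. Alternatives were scalings, pseudocounts, filters, sample subsets, merged sequences, a replicate block, each library left out and the test of the study's methods.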

Additional observations from a re-analysis of the deposited data

How the results depend on the processing

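The main counts of 10 names that rose, 8 that fell and 34 within 2-fold moved with the libraries used. Leaving out 1 library at a time gave 3 to 13 that rose, 2 to 11 that fell and 18 to 41 within 2-fold, with the fewest calls without CK replicate 1 (3 rose, 2 fell), 2 or 3 (4 and 2 for each), and fewer without RW replicate 2 (3 and 5) or 3 (5 and 5). In 4 of the 18 names the call held without each of the 9 libraries: mtr-miR398a-3p_L+1R-1, mtr-miR5559-5p, gma-miR6300_R+5 and gma-MIR5368-p3_2ss1AT18CA. Once low values were raised to the highest smallest value of any library, 15 fell and 57 were within 2-fold, and over the 240 names above 0 in all 6 libraries 4 fell. Over the 261 names that did not reach the minimum through CK or RW alone, a split added after seeing the data, 10 rose and 5 fell. Dropping the fragment-like names left 2 that rose and 5 that fell, a count also lower by the list's own calls. The test of the study's methods, on normalized counts with unequal variances and an unadjusted p over all 595 names, gave 21 higher and 19 lower. Of the 18 names 10 passed it, and PC-3p-78936_58, PC-5p-21436_288, mtr-miR408-3p, mtr-miR5559-5p, mtr-miR166a_R+4, gma-MIR5368-p3_2ss1AT18CA and both miR3630 names did not. Equal totals (8 and 7), other scalings, pseudocounts, a minimum of 20, no filter and fits of CK and RW alone kept the counts within 1.5 times, and no called name changed direction under any alternative. With no filter 12 fell. The replicate number shared by the labels did not pair the libraries (correlations of same-numbered deviations -0.15, -0.12 and -0.02), and a replicate block gave 9 that rose and 9 that fell. Count-based tests were planned and not run: most low values lay on steps of 1 read, but values under about 5 steps were mostly listed as 0 and some fell between steps. The cause of these shifts was not tested. Depth limits low names: values under 2.30 to 3.09 are not listed in RW.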

Other observations

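All values were shared with another name by 156 of the 595 names, in 71 sets. In 22 of these sets the sequences differed, so that the table counts 510 distinct sets of values among 595 names and 305 among the 339 tested. mtr-MIR2606a-p5_1 and mtr-MIR2606a-p5_2, of a Medicago precursor family, are such a pair, at 162, 132 and 174 normalized counts in CK and 177, 132 and 144 in RW, with a log2 difference of -0.05. The 24-base sequence listed as mtr-MIR2603-p5_1ss24AG and mtr-MIR2603-p3_1ss24AG was at 181, 121 and 123.3 in CK and 159, 198 and 117 in RW (log2 difference 0.15), while the 18-base mtr-MIR2603-p3_2ss9AC17AC of the same family had a log2 difference of 2.13 and did not pass.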
